A study of Mus musculus with 48 samples.

Results

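The messenger RNAs of the cytosolic ribosomal proteins were followed in mouse cerebral cortex from embryo to 12 months of age, in wild-type (WT) mice and in mice with 1 disrupted copy of Chd8, which encodes a chromatin remodeler. Genes were taken by symbol, as Rps or Rpl followed by a number with its usual suffixes, together with Rpsa, Rplp0, Rplp1 and Rplp2. The rule gave 82 of the 24444 genes in the expression table. They comprised 30 proteins of the small (40S) subunit, 43 of the large (60S) subunit, 3 of the P stalk and 6 genes named as copies of another member (Rpl3l, Rpl10l, Rpl32l, Rpl39l, Rps4l and Rps27l). The 76 genes outside the last group are called canonical below.

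RNA-seq was performed on dissected cortex, 1 hemisphere per male mouse, on embryonic day 14.5 (E14.5) or after birth, when mice were 1, 6 or 12 months old. Each of the 4 ages had 6 WT and 6 Chd8 V986*/+ mice (48 samples). All were on the C57BL/6J background and controls were littermates. The V986* allele carries tandem stop codons inserted by CRISPR/Cas9, is present in every cell, and comes from a single founder that was backcrossed, so the heterozygotes represent 1 line. Replicates are numbered 1 to 6 in the labels, and the p-values below measure the spread between these samples.

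The ribosome reads messenger RNA in its small subunit and joins amino acids in its large subunit. Most of its proteins are present in equal number per ribosome, and their mRNAs typically begin with a tract of C and T, the 5′ terminal oligopyrimidine (TOP) motif, through which the mTOR pathway controls their translation. In the cortex, the embryonic stage is one of dividing progenitors and newly made neurons, whereas the postnatal tissue holds mature neurons and glia. Heterozygous loss of several of these genes causes Diamond-Blackfan anemia, and inherited changes in RPL10 have been linked to autism.

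The start of the gene is shown for 4 canonical members with a run of at least 8 C or T bases near it. Also shown are Rplp0, which had the largest age difference below, and Rpl3l. Rpl3l is a copy of Rpl3 known from muscle, and its values were higher after birth. The windows surround annotated starts and do not show whether an mRNA begins with the motif. The shorter run near the Rplp0 start therefore does not mean that its mRNA lacks the motif. Each line gives 20 bases before and 20 from the RefSeq start on the gene's strand (GRCm38.p6), and capitals mark the longest run of C and T. The windows lie at chr7:141447631-141447670 (Rplp2, + strand), chr4:86857348-86857387 (Rps6, − strand), chr9:120571497-120571536 (Rpl14, + strand), chr10:128626487-128626526 (Rps26, − strand), chr5:115559447-115559486 (Rplp0, + strand) and chr17:24727806-24727845 (Rpl3l, + strand).
Rplp2: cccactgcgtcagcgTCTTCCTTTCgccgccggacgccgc
Rps6: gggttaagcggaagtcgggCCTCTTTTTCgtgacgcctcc
Rpl14: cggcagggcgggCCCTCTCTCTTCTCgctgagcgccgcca
Rps26: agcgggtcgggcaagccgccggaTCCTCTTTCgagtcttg
Rplp0: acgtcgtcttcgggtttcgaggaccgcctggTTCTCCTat
Rpl3l: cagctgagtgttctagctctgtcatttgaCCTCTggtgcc

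RefSeq windows were found for 61 of the 82 members. A run of at least 8 C or T bases that begins with C, within 20 bases either side of the start, was present in 30 of the 61 (49.2%) and in 14.4% of the other 26964 genes. The letters CCGGAAG, the core bound by ETS factors, occurred on either strand of the 300-base window in 25 of the 61 (41.0%) and in 9.86% of the other genes. A gene with several annotated starts was counted once if any of its windows held the letters, and both counts describe the letters only.

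Chd8 itself checked the genotype labels. Its level was lower in Chd8 V986*/+ than in WT mice at every age, at 62.7% to 68.8% of WT (limma adjusted p between 1.07e-07 and 0.0261), and the genotypes did not overlap. Values are variance-stabilized (VST) expression on a log2 scale, on which a difference of 1 is a doubling for abundant genes, and 2.14, the value shared by 15.7% of all entries in the table, is taken as its floor. The neuronal gene Snap25 was well above this floor in all groups (group means 10.9 to 16.2). The myelin gene Mbp went from 8.94 at E14.5 to 16.6 at 1 month in WT mice. Ttr, a choroid plexus gene, ranged from 7.98 to 13.9 over the postnatal mice, so the samples differed in choroid plexus RNA. For every gene, the mean over all samples numbered 1 to 3 equalled that over all samples numbered 4 to 6 (largest difference 3.2e-14). An average difference between these 2 sets is therefore absent from the values, and the main fits did not account for this. Their p-values may be somewhat too small for that reason. Values within these 2 sets are given below for the canonical mean and for Rps4l.

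The ribosomal protein mRNAs fell between E14.5 and 1 month in both genotypes. The per-mouse mean over the 76 canonical genes ran from 12.00 through a median of 12.08 to 12.28 in WT embryos. At 1 month it ran from 10.86 through 10.99 to 11.10. The Chd8 V986*/+ mean ran from 11.92 through 12.10 to 12.35 at E14.5 and from 10.94 through 10.98 to 11.19 at 1 month. Every embryo therefore lay above every 1-month mouse, and the genotypes overlapped at both ages. The difference between the ages in this mean was -1.148 within replicates 1 to 3 and -1.069 within replicates 4 to 6 in WT mice, and -1.059 and -1.129 in Chd8 V986*/+ mice.

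**Figure D1:**
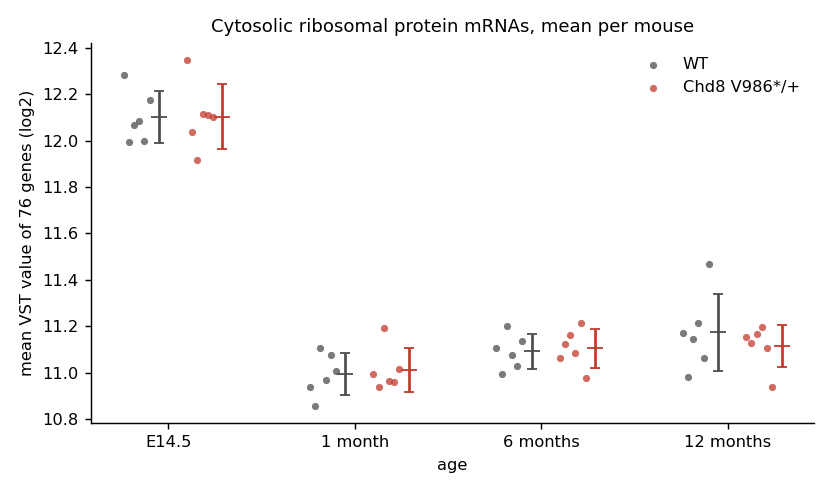
Mean VST value (log2) over the 76 canonical ribosomal protein genes in each mouse, by age and genotype. Points are mice, 6 per group, and bars are the mean with its SD. Both genotypes drop from 12.1 at E14.5 to 11.0 at 1 month, and the highest postnatal mouse is a WT animal at 12 months (11.468).

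By gene, 76 of 76 canonical members were lower at 1 month than at E14.5 in WT mice (limma, adjusted p below 0.1), against 42.3% of all genes called lower and 85.7% called in either direction. The median log2 difference of these members was -1.12, or 46.1% of the embryonic level, whereas the median over all 17285 genes tested was 0.02. In Chd8 V986*/+ mice 75 of 76 were lower, beside 42.4% of all genes (86.1% in either direction), with a median of -1.10 and an all-gene median of 0.02. The remaining member, Rps21, was at -0.07 ± 0.08 (SE; limma adjusted p = 0.424) in Chd8 V986*/+ mice. In 74 members the 6 embryos and the 6 mice of 1 month did not overlap, in each genotype, beside 33.5% of all genes without overlap in that direction in WT and 33.9% in Chd8 V986*/+ mice.

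The WT and Chd8 V986*/+ differences were close. They share no samples in this comparison. Across the 76 canonical genes, Pearson's r between the WT and the Chd8 V986*/+ log2 differences was 0.99, a description over genes that share libraries and are not independent replicates. The median absolute difference between the genotypes was 0.03, and the largest was 0.17, for Rps28.

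Bulk tissue was measured, so fewer cells of a type and less RNA per cell cannot be told apart. Several lists of cell type markers moved strongly at the same step. All 8 progenitor markers were lower in WT mice (median -4.21), and all 6 oligodendrocyte (median 7.90), 6 astrocyte (3.62) and 6 microglia markers (2.71) were higher. Of the red blood cell markers 7 of 7 were lower (-1.82). The mean over endothelial markers moved less, from 9.532 at E14.5 to 9.297 at 1 month in WT mice. The mean over neuron markers went from 13.112 to 14.411, over cortical neuron markers from 11.972 to 11.032 and over choroid plexus markers from 8.597 to 6.723. The part of these cell types in the ribosomal protein difference was not tested.

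**Figure D2:**
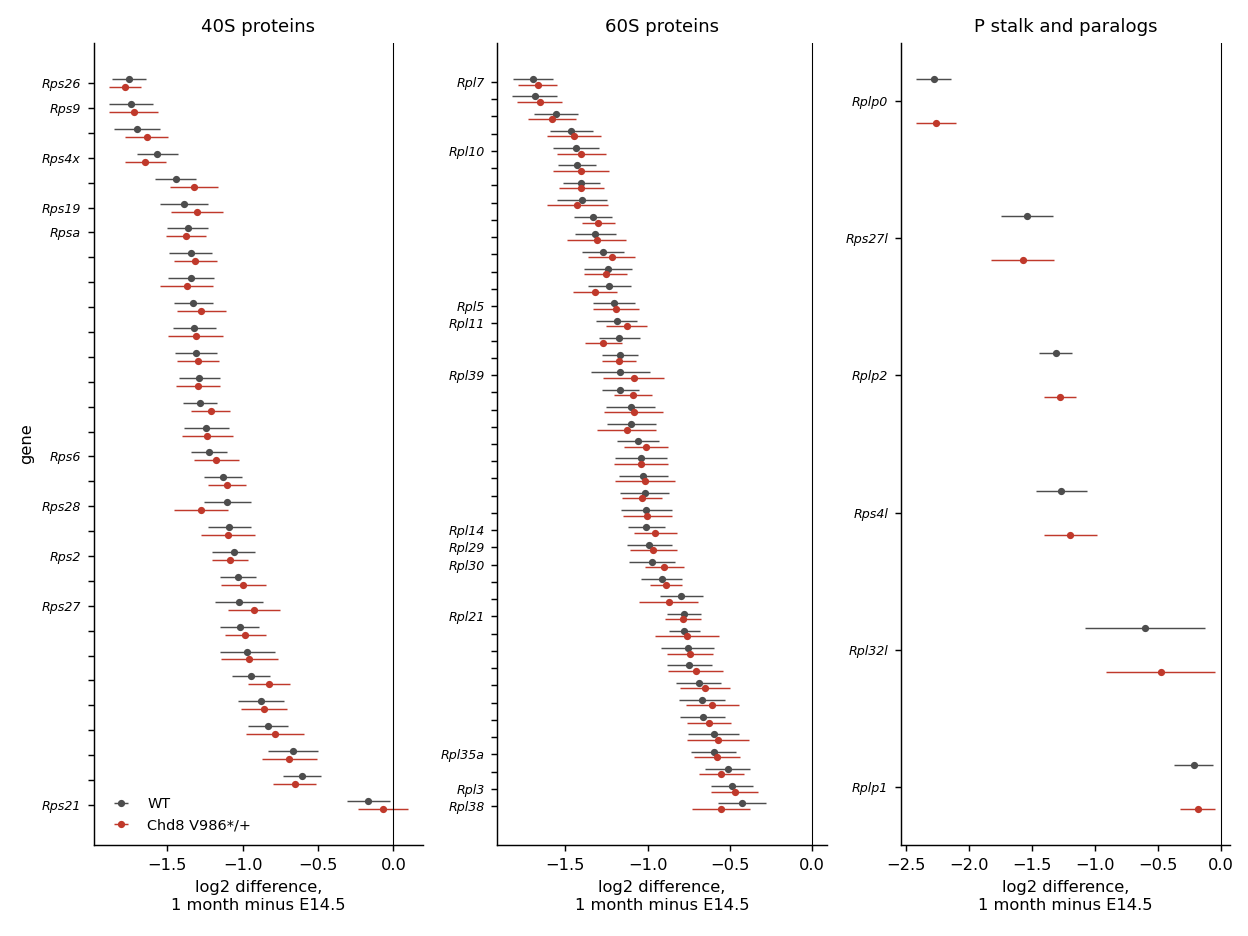
Difference between 1 month and E14.5 for each gene (log2, horizontal axis) with its 95% confidence interval, in WT and Chd8 V986*/+ mice, for the 40S, the 60S and the P stalk and copy genes, with names at the genes described in the text. Rplp0 lies farthest to the left (-2.28 in WT) and Rps21 and Rplp1 lie close to 0. The low copy genes Rpl3l, Rpl10l and Rpl39l are not drawn.

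The size of the fall differed among members. In WT mice the median was -1.23 for the 30 proteins of the 40S subunit and -1.06 for the 43 of the 60S subunit. Rps26, a 40S protein that contacts mRNA near the exit channel, ran from 12.63 through 12.66 to 12.90 in WT embryos and from 10.89 through 10.93 to 11.06 at 1 month. Its log2 difference was -1.75 ± 0.05 (SE, 6 against 6; limma adjusted p = 5.59e-14) in WT and -1.78 ± 0.05 (7.11e-15) in Chd8 V986*/+ mice. Rps9, a core protein of the 40S subunit, fell by 1.74 in WT and by 1.72 in Chd8 V986*/+ mice.

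At the other end of the 40S group was Rps21, which was named after its values were seen. It ran from 11.34 through 11.53 to 11.72 in WT embryos and from 11.25 through 11.32 to 11.55 at 1 month. The 2 ranges overlapped, and the log2 difference was -0.17 ± 0.07 (limma adjusted p = 0.0328). In the 60S group the values reached from -1.70 for Rpl7 to -0.42 for Rpl38, likewise named after the fact. Rpl3, which lines the peptidyl transferase center, was at -0.49 ± 0.06 in WT, while Rpl10, a late-joining 60S protein, was at -1.44 ± 0.07. Rpl39, a small protein of the exit tunnel, was at -1.17 ± 0.08.

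Rps6, the 40S protein phosphorylated by S6 kinase downstream of mTOR, ran from 11.66 through 11.75 to 11.99 in WT embryos. At 1 month it ran from 10.44 through 10.55 to 10.65, a log2 difference of -1.22 ± 0.06. Rpsa, which is also known as the laminin receptor precursor, differed by -1.36 ± 0.06. All 9 genes in a chosen list of those linked to Diamond-Blackfan anemia, Rps19, Rps26, Rpl5, Rpl11 and Rpl35a among them, were lower in both genotypes, with a median of -1.21 in WT and -1.19 in Chd8 V986*/+ mice. Being lower does not set this list apart, since all 76 canonical members were lower in WT mice, beside 42.3% of all genes. In the Chd8 V986*/+ comparison every canonical member except Rps21 was lower, beside 42.4% of all genes. The median of the list was not tested against that of the other members. Within the anemia list Rps26 was the lowest and Rpl35a the least changed, at -0.60 ± 0.06 in WT. Rpl5 and Rpl11, which bind Mdm2 together with the 5S rRNA, were at -1.21 and -1.19.

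Among the canonical groups, the P stalk showed the widest spread. The stalk recruits elongation factors, with Rplp0 as its base and pairs of Rplp1 and Rplp2 attached to it. Rplp0 ran from 14.06 through 14.17 to 14.45 in WT embryos and from 11.79 through 11.92 to 11.99 at 1 month, when 20.5% of the embryonic level was left. Its log2 difference was -2.28 ± 0.07 in WT (limma adjusted p = 2.86e-14) and -2.27 ± 0.07 (4.72e-14) in Chd8 V986*/+ mice. Rplp2 differed by -1.31 ± 0.06 in WT. Rplp1 ran from 12.06 through 12.19 to 12.39 in WT embryos and from 11.84 through 11.97 to 12.19 at 1 month, so that the 2 ages overlapped, with a difference of -0.22 ± 0.07 (limma adjusted p = 0.0126) in WT and -0.19 ± 0.06 (0.014) in Chd8 V986*/+ mice.

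The difference between 2 genes in the same mouse is untouched by a shift common to all genes of a sample, and such differences were added after the values had been seen. Rplp0 minus Rplp1 was 1.97 ± 0.08 (SD, n = 6) in WT embryos and -0.09 ± 0.11 at 1 month. This change of -2.07 had an exact two-sided permutation p of 0.0022, the smallest that 6 against 6 allows (Benjamini-Hochberg adjusted p = 0.011 over 50 such tests). The change was -2.08 in Chd8 V986*/+ mice, with the same exact p. Rplp2 minus Rplp1 changed by -1.10 in both genotypes, and again the exact permutation p was 0.0022. From 1 to 6 months Rplp0 minus Rplp1 changed further, by -0.23 in WT (exact permutation p = 0.0022) and -0.25 in Chd8 V986*/+ mice (exact permutation p = 0.0043). The lowest adjusted p among the genotype comparisons of the 3 stalk pairs was 0.46 (exact permutation test).

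**Figure D3:**
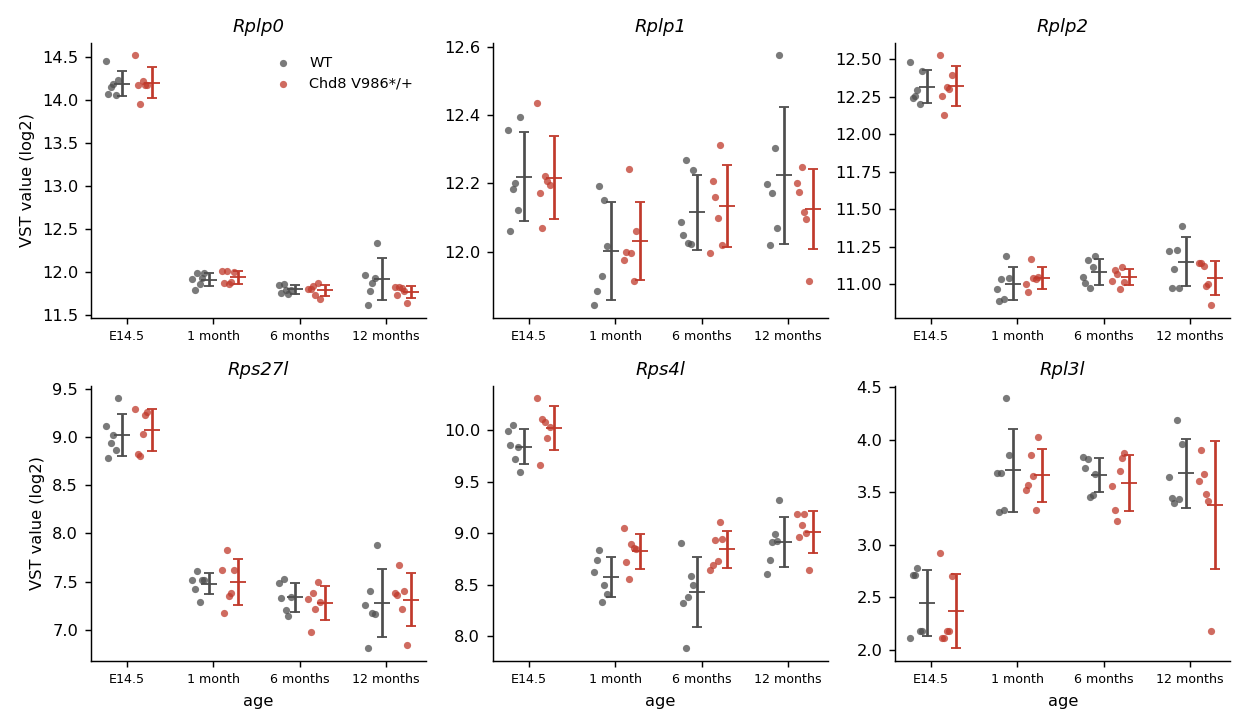
VST values (log2) of the 3 P stalk genes and of Rps27l, Rps4l and Rpl3l in each mouse, by age and genotype. Points are mice, 6 per group, and bars are the mean with its SD. Rplp0 and Rplp2 drop from E14.5 to 1 month with no overlap, Rplp1 overlaps between the ages, and Rpl3l is near the floor in embryos.

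The 6 copy genes differed widely in level. Rps27l, a p53-inducible copy of Rps27, ran from 8.78 through 8.98 to 9.40 in WT embryos and from 7.29 through 7.52 to 7.61 at 1 month, a difference of -1.54 ± 0.10. Rps27 fell by 1.03, and Rps27 minus Rps27l in the same mouse rose by 0.51 in WT (exact permutation p = 0.0022) and by 0.65 in Chd8 V986*/+ mice (exact permutation p = 0.0022). From 1 to 6 months this within-mouse difference rose again, by 0.37 in WT (exact permutation p = 0.0043) and 0.39 in Chd8 V986*/+ mice (exact permutation p = 0.0087). The near-identical Rps27rt, which lies outside the symbol rule, was at 10.7 in WT embryos and 9.73 at 1 month, and reads of such copies may have been divided among them.

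Rpl3l was low throughout. In WT mice it ran from 2.11 through 2.44 to 2.77 at E14.5, close to the floor, and from 3.31 through 3.68 to 4.39 at 1 month, without overlap. It passed the filter on low values only through its 1-month group, so no fold change or test is given. Rpl3 itself was lower at 1 month, as given above. Rpl10l was at the floor in all 48 samples. Rpl39l, known from testis, and Rpl32l did not exceed 3.32 and 3.77 in any mouse. Genes were tested where their mean was at least 0.5 above the floor, which all 76 canonical members passed in every comparison and the copy genes Rpl10l, Rpl39l, Rpl32l and Rpl3l did not always pass.

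The rest of the translation machinery gave a graded picture at the same step. Other mRNAs known to carry a TOP motif, such as those of elongation factors, fell in 18 of 18 cases in WT mice, with a median of -1.18. Ribosome biogenesis factors were lower in 68 of 76 and higher in 6, with a median of -0.68. Initiation factors were lower in 31 of 35 and higher in 3 (median -0.68), and elongation and termination factors were lower in 9 of 10 and higher in 1 (median -0.59). The TOP list shares elongation and initiation factor genes with these lists. Proteasome subunits were lower in 31 of 39 and higher in 4 (median -0.39). Mitochondrial ribosomal proteins, which build the separate ribosome of that organelle, were lower in 36 of 78 and higher in 21, with a median of -0.11. The Chd8 V986*/+ medians were -1.13, -0.71, -0.66, -0.62, -0.38 and -0.10 in the same order.

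**Figure D4:**
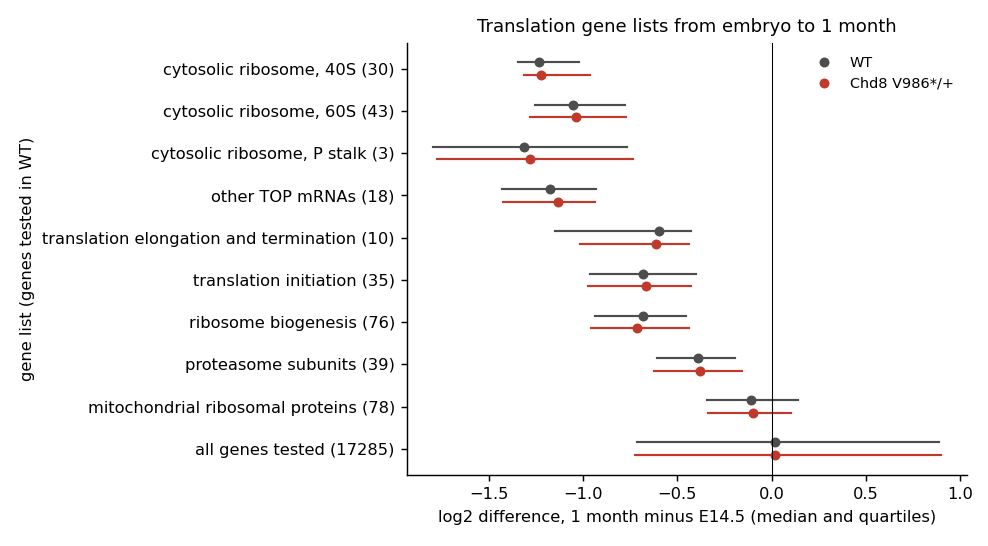
Median log2 difference between 1 month and E14.5 (points) with the lower and upper quartile over genes (lines) for each gene list, in WT and Chd8 V986*/+ mice. Numbers in parentheses are the genes tested in WT. The cytosolic ribosome and the other TOP mRNAs lie at or beyond -1.06 in WT, and mitochondrial ribosomal proteins lie near all genes tested.

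Between 1 and 6 months a smaller change followed in the other direction. These comparisons reuse the 1-month mice of the previous step. In WT mice 25 canonical members rose and 4 fell (limma, adjusted p below 0.1), beside 12.3% of all genes called in each direction and 24.6% in total. The median member difference was 0.11 and the median over all genes was 0.01. In Chd8 V986*/+ mice 25 rose and 3 fell, beside 14.0% higher and 12.8% lower among all genes (26.8% in total), with a median of 0.10. Of the 25 that rose in each genotype, 18 (72.0% of either list) were shared, and all 3 that fell in Chd8 V986*/+ mice (Rpl29, Rplp0 and Rps2) also fell in WT. The ages did not overlap for 5 of these in WT (Rpl3, Rpl6, Rpl14, Rpl24 and Rps6) and 3 in Chd8 V986*/+ mice (Rpl4, Rpl8 and Rpl21), beside 3.71% and 4.47% of all genes, and several of these were named after their values were seen.

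Rpl14, a 60S protein, showed the largest rise. In WT mice it ran from 10.94 through 11.06 to 11.18 at 1 month and from 11.27 through 11.32 to 11.42 at 6 months, a log2 difference of 0.27 ± 0.04 (limma adjusted p = 0.000607). The Chd8 V986*/+ difference was 0.26 ± 0.05 (limma adjusted p = 0.00263), and the ages overlapped. Rps6 rose by 0.22 ± 0.04 in WT and 0.17 ± 0.04 in Chd8 V986*/+ mice. Rps27 and Rps19, both 40S proteins, rose by 0.23 each in WT, as did Rpl30. For each of these genes the rise was smaller than the preceding fall.

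The members that fell again were a small group. Rps2, near the mRNA entry of the 40S subunit, fell by 0.20 ± 0.05 in WT and by 0.14 ± 0.04 in Chd8 V986*/+ mice. Rpl29 fell by 0.17 and 0.14, and Rplp0 by 0.11 and 0.15. Rps26 fell by 0.12 ± 0.04 in WT mice (limma adjusted p = 0.0535), whereas it was at 0.02 ± 0.04 in Chd8 V986*/+ mice (0.766). The difference between these 2 values was 0.14 ± 0.05, with an adjusted p of 0.999 from limma.

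The count at this step changed with single replicate numbers and with the fit. Over all alternatives run, between 18 and 50 members were called in WT and between 14 and 43 in Chd8 V986*/+ mice. Without replicate 6 of each age, 18 members were called in WT. In Chd8 V986*/+ mice the count was 43 without replicate 3, 17 without replicate 2, 16 without replicate 4 and 14 without replicate 5. Replicate 3 at 1 month was the highest Chd8 V986*/+ mouse of that age in the canonical mean (11.194, the others 10.936 to 11.016), and all 76 members were above their group mean in it. At the same step all 6 oligodendrocyte markers were lower, with a median of -0.87 in WT and -1.03 in Chd8 V986*/+ mice, and 6 of 7 red blood cell markers were lower (-0.62 and -0.79). Whether these changes have a part in the rise was not tested. The canonical mean differed between the 2 ages by 0.135 within replicates 1 to 3 and by 0.063 within replicates 4 to 6 in WT mice, and by 0.076 and 0.113 in Chd8 V986*/+ mice.

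From 6 to 12 months no member was called in either genotype. Among all genes 0.00579% were called in WT and 3.43% in Chd8 V986*/+ mice, and 1 member in WT (Rps4l) and 0 in Chd8 V986*/+ mice had an unadjusted limma p below 0.05, beside 6.75% and 15.9% of all genes. The canonical mean in WT was 11.09 ± 0.07 (SD, n = 6) at 6 months and 11.17 ± 0.17 at 12 months. In Chd8 V986*/+ mice it was 11.10 ± 0.08 and 11.11 ± 0.09. The highest WT mouse at 12 months was replicate 6, in which the mean was 11.468 and 74 of 76 members were above their group mean. Without that mouse the WT difference between the ages went from 0.083 to 0.024. Within replicates 1 to 3 that difference was -0.002, and within replicates 4 to 6, which hold that mouse, it was 0.168. In Chd8 V986*/+ mice the values within the 2 sets were 0.032 and -0.012. In WT replicate 6 at 12 months, mitochondrial ribosomal proteins (0.26 above the group mean) and proteasome subunits (0.19) were also the highest of the group. So were red blood cell (0.52), astrocyte (0.185) and microglia markers (0.159). Cortical neuron (-0.30), endothelial (-0.186) and midbrain, hindbrain and spinal cord markers (-0.126) were the lowest. Neuron, progenitor, oligodendrocyte and choroid plexus markers were neither.

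The members with the smallest fall after birth, Rplp1 and Rps21, had WT means at 12 months close to the embryonic ones. Rplp1 was at 12.22 ± 0.13 (SD, n = 6) at E14.5 and 12.22 ± 0.20 at 12 months. Rps21 was at 11.53 ± 0.12 and 11.61 ± 0.21. Rplp0 was at 11.92 ± 0.24 at 12 months against 14.19 ± 0.14 at E14.5. The embryo and the 12-month mice were not compared in a fit of their own.

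Loss of 1 Chd8 copy was the comparison for which the mice were bred. No canonical member was called between Chd8 V986*/+ and WT mice at any age. At E14.5, 0 of 76 were called (0.00593% of all genes), with 0 members below an unadjusted limma p of 0.05 (4.56% of all genes), and the median difference was 0.00. At 1 month, 0 of 76 were called (0.139% of all genes), with 0 below an unadjusted p of 0.05 (8.8% of all genes) and a median of 0.02. At 6 months, 0 of 76 were called (0.0927% of all genes), with 2 higher at an unadjusted p below 0.05 (7.59% of all genes in either direction) and a median of 0.01. At 12 months, 0 of 76 were called (0.0463% of all genes), with 1 lower at an unadjusted p below 0.05 (11.6% of all genes in either direction) and a median of -0.06. No member separated the 6 mice of one genotype from the 6 of the other at any age, beside 0.261%, 0.825%, 0.527% and 0.868% of all genes.

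The intervals bound the size of an effect that could have been missed. For the 76 canonical members, every 95% confidence interval of the genotype difference lay between -0.295 and 0.289 at E14.5, between -0.322 and 0.235 at 1 month, between -0.184 and 0.24 at 6 months and between -0.389 and 0.251 at 12 months. The largest absolute difference of a canonical member was 0.19, for Rpl10 at 12 months. Rpl10 ran from 11.32 through 11.46 to 11.92 in WT and from 11.14 through 11.35 to 11.41 in Chd8 V986*/+ mice at that age, with overlap, and differed by -0.19 ± 0.09 (limma adjusted p = 0.421). Rps26 at 6 months ran from 10.73 through 10.85 to 10.91 in WT and from 10.91 through 10.98 to 11.11 in Chd8 V986*/+ mice, touching at 10.91, and differed by 0.15 ± 0.04 (limma adjusted p = 0.372). Rps28 at 1 month was at -0.16 ± 0.08 (limma adjusted p = 0.57). Among the 3 lowest p values of their age were also those of Rpl24 at 1 month (0.09), Rpl21 at 6 months (0.10) and Rpsa at 12 months (-0.15).

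At 12 months 62 of 76 canonical members were below 0, beside 48.6% of all genes. The Chd8 V986*/+ mice had a canonical average of 11.11 ± 0.09 (SD, 6 mice) and the WT mice of 11.17 ± 0.17, and the ranges, 10.94 to 11.20 and 10.98 to 11.47, overlapped. The difference between the means was -0.06, and it was -0.001 without replicate 6 of the WT mice. Within replicates 1 to 3 the difference was 0.05 and within replicates 4 to 6 it was -0.169. At E14.5 the corresponding difference was 0.003 over all embryos, -0.015 within replicates 1 to 3 and 0.021 within replicates 4 to 6. Within the same 2 sets it was 0.074 and -0.039 at 1 month and 0.015 and 0.01 at 6 months. At E14.5 all 11 measured midbrain, hindbrain and spinal cord markers had lower means in Chd8 V986*/+ embryos, with a median of -1.11, which was -0.32 with 10 of 11 lower when replicate 5 of the WT embryos was left out. All 6 cortical neuron markers had higher means, with a median of 0.33 (0.22 without that embryo). None of these markers was called, and their part in the ribosomal protein values was not tested.

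**Figure D5:**
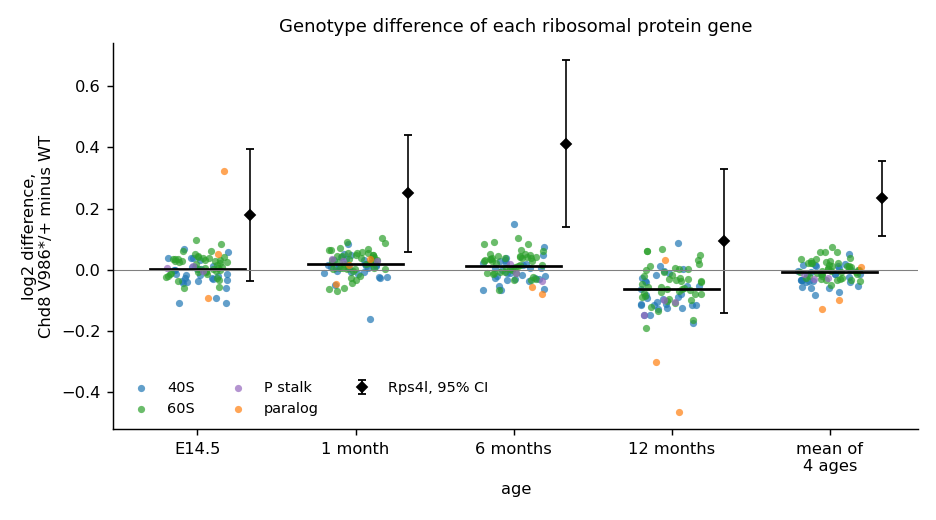
Difference between Chd8 V986*/+ and WT mice (log2) for each ribosomal protein gene at each age and for the mean of the 4 ages, colored by group (the copy genes as paralogs), with the median as a line. Diamonds are Rps4l with its 95% confidence interval. Canonical genes lie between -0.19 and 0.15 at every age, and Rps4l lies above 0 at each age.

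Rps4l, a copy of the 40S gene Rps4x, had a higher mean in Chd8 V986*/+ mice at each age, with no call at any single age. At E14.5 it ran from 9.59 through 9.85 to 10.05 in WT and from 9.66 through 10.06 to 10.31 in Chd8 V986*/+ mice. At 1 month it ran from 8.34 through 8.56 to 8.83 in WT and from 8.56 through 8.85 to 9.05 in Chd8 V986*/+ mice. At 6 months it ran from 7.88 through 8.44 to 8.90 and from 8.64 through 8.83 to 9.11. The genotypes overlapped each time and also at 12 months, when the means were 8.92 ± 0.24 and 9.01 ± 0.20. The differences were 0.18, 0.25, 0.41 and 0.09 in order of age, and the lowest adjusted p from limma was 0.427. Within replicates 1 to 3 the difference was 0.061, 0.048, 0.385 and 0.322 in order of age, and within replicates 4 to 6 it was 0.296, 0.453, 0.439 and -0.136. Rps4x minus Rps4l in the same mouse differed between the genotypes by -0.12 at E14.5 (exact permutation p = 0.35, adjusted p = 0.6) and by -0.27 at 1 month (exact permutation p = 0.058, adjusted p = 0.14). It differed by -0.42 at 6 months (exact permutation p = 0.019, adjusted p = 0.057) and by -0.20 at 12 months (exact permutation p = 0.024, adjusted p = 0.066). Rps4x itself differed by 0.06, -0.02, -0.01 and -0.11 in order of age (lowest limma adjusted p = 0.515). The value at 12 months is therefore not due to Rps4l alone. At that age replicate 6 of the Chd8 V986*/+ mice was low in Rps4x (11.673, the others 11.87 to 11.919). These pair tests reuse Rps4l values already seen and are no independent support.

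The mean of the 4 genotype differences was then fitted over all 48 samples, a test chosen after these values were seen, so that it is no independent support. In that fit 3.0% of all 17311 genes were called. Among the 80 members tested 1 was called, Rps4l, with a mean difference of 0.23 ± 0.06 (limma adjusted p = 0.0255), or 118% of WT. Rps4x was at -0.02 ± 0.03 (limma adjusted p = 0.847), with an interval that excludes the Rps4l value. Without replicate 4 of every group the difference of Rps4l was 0.21 (limma adjusted p = 0.194), and without replicate 5 it was 0.23 (limma adjusted p = 0.137). The member with the next lowest p was Rpl21, at 0.06 ± 0.03 (limma adjusted p = 0.306).

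Of the 78 members tested at all 4 ages, 7 (8.97%) had a higher mean in Chd8 V986*/+ mice each time (Rpl21, Rpl22, Rpl26, Rpl36, Rpl36a, Rps26 and Rps4l) and 6 (7.69%) a lower mean, Rpl3, Rps27 and Rpsa among them, beside 8.87% and 8.74% of all 16308 genes tested at all 4 ages. Except for Rps4l none was called in the fit of the mean. The genotype difference itself was also compared between ages, with 4 contrasts that share mice. No member was called in any of them (0.0%, 0.0%, 0.0116% and 0.0% of all genes called for 1 month against E14.5, 6 against 1 month, 12 against 6 months and 12 months against E14.5), and 2 members, Rps26 (0.14) and Rpl6 (-0.12), had an unadjusted limma p below 0.05, both for 6 against 1 month (4.62% of all genes).

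The 76 canonical members moved together from mouse to mouse within a group. In 4 of the 48 mice, replicate 1 of both genotypes at E14.5 and replicate 3 of both genotypes at 1 month, all 76 were above their own group mean. In 4 other mice none was. The share of all genes above their group mean was not counted, and other lists shared such shifts. In replicate 1 of the Chd8 V986*/+ embryos, mitochondrial ribosomal proteins (0.206 above the group mean) and proteasome subunits (0.19) were the highest of the group. Ribosome biogenesis factors (0.01) were not. In replicate 3 of the Chd8 V986*/+ mice at 1 month these lists were each the highest (0.092, 0.057 and 0.033). The pooled SD within groups was smallest, among members above the floor, for Rpl4 (0.08), Rpl22 (0.08) and Rpl21 (0.09), and largest for the low copy genes Rpl32l (0.43), Rpl39l (0.42) and Rpl3l (0.36).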

How the data were processed

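The 24444-gene table deposited by the authors holds variance-stabilized (VST) values on a log2 scale for 48 samples. The labels name a TruSeq kit and the study's methods a stranded polyA kit from KAPA. The submitters' processing notes name STAR 2.5.2b, Salmon 0.11.3, DESeq 1.22.2 and DESeq2, with mm9 as the genome. Per the study's methods, its model corrected for batch effects. No counts were used here, so the number of reads behind each gene's value is unknown and no count test was run. Only the read total of each sample was known, as listed by the study. Of all values, 15.7% equalled 2.143271, the floor, and 6.06% were below it.

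Members were found by symbol. Members and gene lists were chosen with earlier results of these data known. Each comparison was fitted with limma 3.58.1 (R 4.3.3) with a mean-variance trend on genes averaging at least 0.5 above the floor, and called at a Benjamini-Hochberg adjusted p below 0.1 over all genes tested. The procedure was first tested on simulated data. Members were named if they had the 3 lowest p values of a genotype comparison or the 3 largest called rises or falls of an age comparison, belonged to a paralog pair, the P stalk or the anemia genes, were Rps6, Rpsa or Rpl10, or had the 3 largest or smallest SDs. Rps21, Rpl7, Rpl38, Rpl6, Rpl8, Rpl26, Rpl36 and Rpl36a were named after their values were seen. Some genes that this rule names are not reported here. Differences within a mouse were compared by exact two-sided permutation tests with Python 3.11.15. Start sequences came from RefSeq (GRCm38.p6), and no coordinates were taken across builds. Alternatives covered filters, scaling, covariates, the replicate block, a joint fit, read totals listed by the study as a covariate, and leaving out replicates.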

Additional observations from a re-analysis of the deposited data

Results flagged for a closer look

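In 14 of the 144 group values examined, 1 mouse lay far from the other 5 of its group. Chance gives about 1 in 20 for independent values. These values are not independent, since the means hold many of the same genes and the same mice recur. The count therefore cannot be set against that rate. All 14 were in Chd8 V986*/+ groups, and most came from replicate 3 at 1 month and replicate 6 at 12 months. Replicate 3 at 1 month was high in the canonical mean (11.194, the others 10.936 to 11.016), the 40S mean (11.255), the 60S mean (11.109), Rps6 (10.732) and Rps27 (10.401). It was the lowest of its group in choroid plexus markers (-1.85 from the group mean). The same held for endothelial (-0.714), red blood cell (-0.679), progenitor (-0.338), microglia (-0.212), astrocyte (-0.188) and midbrain, hindbrain and spinal cord markers (-0.106). It was not the lowest in neuron, cortical neuron or oligodendrocyte markers. Replicate 6 at 12 months was low in the canonical mean (10.938, the others 11.106 to 11.195), the 60S mean (10.873), Rpl10 (11.144), Rps4x (11.673) and Rpl3l (2.179). Replicate 1 at E14.5 was high in Rpl10 (12.999), and replicate 6 at 6 months was low in Rps27 (10.113). Rpl39l, near the floor in every group, was high in replicate 6 at 6 months (2.948) and replicate 4 at 12 months (2.846).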

How the results depend on the processing

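Counts in this paragraph are over all members tested, copy genes included. Of the main counts and medians under the alternatives, 370 values kept their direction and call or stayed near the main value, and 14 moved. Quantile normalization moved the median difference between 1 month and E14.5 to -1.29 in WT and -1.28 in Chd8 V986*/+ mice, with an all-gene median of -0.11. From 1 to 6 months the 29 WT calls became 18 at an adjusted p below 0.05, 18 in one fit of all 48 samples, 50 with the replicate block, and 18 to 34 with a replicate number left out. The 28 calls in Chd8 V986*/+ mice became 14 in one fit of all 48 samples and 14 to 43 with a replicate number left out (36 with the replicate block). The genotype difference averaged over the ages, chosen after seeing the data, called 0 to 2 members with a number left out. In it the Rps4l call (limma adjusted p = 0.0255) was lost without replicate 4 (0.194) or replicate 5 (0.137). The cause of these shifts was not tested. Of the other values for single genes 307 kept their call and 11 lost it, for Rpl29, Rps26, Rplp0 and Rps2 from 1 to 6 months, and none reversed. Between genotypes at E14.5 the mean correlation of same-numbered samples was 0.232 (0.012 to 0.578), and 3 correlated best with their own number. A pairing of the embryos by number is therefore not settled, and the main fits used none. In the other comparisons the mean correlation was between -0.045 and 0.045, and the numbers showed no pairing. Without counts, the precision of low genes such as Rpl3l could not be derived.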
